A study of Mus musculus with 6 samples.

Results

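Branched-chain amino acid catabolism was examined through 10 genes, Bcat1, Bcat2, Bckdha, Bckdhb, Dbt, Bckdk, Ppm1k, Mccc1, Mccc2 and Pcca, chosen by symbol from the 21959 genes of the deposited expression table. All 10 members were found in the table and all 10 had enough counts to be tested. The libraries came from the dorsal skin of male C57BL/6 mice that were shaved in telogen, the resting phase of the hair cycle, at 7 weeks of age. Vehicle, which is 30% dipropylene glycol in water, or 3% rebamipide, a gastroprotective drug, was then put on the shaved skin daily for 7 days, with 3 libraries per group. Polyadenylated RNA of the whole skin was sequenced, and the comparison asked which transcripts differed between rebamipide-treated and vehicle-treated skin after 7 days. The methods name mice as the unit, but the labels do not tie each library to a separate mouse, so the p-values measure the spread between these libraries.

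Leucine, isoleucine and valine are first stripped of their amino group by a branched-chain aminotransferase, cytosolic (Bcat1) or mitochondrial (Bcat2), which passes it to 2-oxoglutarate and gives glutamate. The resulting keto acids are decarboxylated by the branched-chain keto acid dehydrogenase (BCKDH) complex in the mitochondrial matrix, the committed step, which a kinase switches off and a phosphatase switches on. The acyl-CoA products then follow separate routes to acetyl-CoA, acetoacetate or succinyl-CoA, and the pathway is known to be active in brown and white fat, muscle, heart, kidney and liver.

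Several facts of the libraries bear on every value below. Total counts ran from 38676018 to 39915276 in vehicle and from 32709801 to 34706852 in rebamipide libraries, and 13 mitochondrially encoded genes took 2.59% to 5.36% of counts in vehicle and 13.28% to 21.96% in rebamipide. The third rebamipide library, labelled skin, held almost no keratinocyte transcripts: its summed level of 6 basal keratinocyte markers was 15.0 CPM (counts scaled to a common library total, after adjusting the totals by edgeR's trimmed mean of M-values, TMM), against 2380 to 3880.1 in vehicle and 574 and 1075.3 in the other rebamipide libraries, and Krt14 had 0 counts there. For all 6 of these markers the highest rebamipide library lay below the lowest vehicle library. The sum of 8 brown adipocyte markers was 210.6 to 368.7 CPM in vehicle and 4860.6 to 12662.8 in rebamipide (6 of 8 higher in every rebamipide library, Elovl3 lower in every one), with Ucp1, the uncoupling protein that defines brown and beige fat, at 0 counts in all vehicle libraries. For 10 general adipocyte markers the sums were 1849.5 to 5428 and 11781.9 to 21651.5 CPM, with 7 of 10 higher in every rebamipide library. The 6 endothelial markers summed to 209.3 to 496.8 CPM in vehicle and 1012.3 to 1459.3 in rebamipide, all 6 of them higher in every rebamipide library. Fast skeletal muscle markers overlapped between groups, from 5316.7 to 26415.7 CPM in vehicle and from 272 to 33731.1 in rebamipide, and sums for slow muscle, suprabasal keratinocytes, sebaceous gland, fibroblasts and leukocytes also overlapped, although 4 of 6 sebaceous markers were lower and 3 of 5 slow muscle markers higher in all rebamipide libraries. Markers of the growing hair follicle, which telogen skin should hold little of, summed to 16109, 7316.8 and 165.9 CPM in vehicle libraries 1, 2 and 3 and to 804.7, 0.156 and 0 CPM in rebamipide, so vehicle libraries 1 and 2 stand apart in this respect. In bulk skin, more cells of a type and more RNA per cell cannot be told apart, and the part of these markers in the results below was not tested.

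Most of the members had higher transcript levels after rebamipide. Of the 10 members, 7 rose and 0 fell at an edgeR quasi-likelihood adjusted p below 0.05, the 7 being Bckdha, Pcca, Bckdhb, Mccc2, Mccc1, Dbt and Bckdk. Bcat2, Ppm1k and Bcat1 did not pass. Over all 14875 genes tested, 14.1% passed as higher and 6.51% as lower. The median log2 fold change was 1.71 over the 10 members and -0.17 over all genes. In TMM-scaled CPM, all rebamipide libraries lay above all vehicle libraries for 8 of the 10. The latter held for 24.5% of all genes tested, and all rebamipide libraries lay below for 24%. In FPKM (counts scaled to gene length and library size), Bcat2 and Dbt overlapped between groups as well. Bcat2 reached 31.126 in vehicle and 25.245 was its lowest rebamipide value, and for Dbt these values were 14.936 and 14.555. With a threshold on size as well, an unadjusted p below 0.05 and an absolute log2 fold change above 1, the edgeR fit placed 9 members as higher and 0 as lower, where 14.3% of all genes were higher and 14.5% lower. At an unadjusted p below 0.05 alone, 9 members were higher and 0 lower by edgeR, against 20.9% and 18.8% of all genes. After adjustment DESeq2 passed 9 members as higher and 0 as lower (18.3% and 17% of all genes), and limma-voom 6 and 0 (14.4% and 6.94%). With vehicle library 2 or rebamipide library 2 left out, edgeR passed 0 members and 0 and 1 of all genes. At an unadjusted p below 0.05, edgeR then placed 7 and 8 members as higher. In the same fits 4116 of 14964 and 4062 of 15335 genes passed in either direction. DESeq2 passed 7 and 8 members without these libraries (2097 and 2684 of all genes higher) and limma-voom 3 and 4 (210 and 256). The fold changes moved little in those fits: the log2 difference of Bckdha was 3.10 and 3.14 against 3.13 with all libraries, and that of Pcca 2.79 and 2.85 against 2.87. Without vehicle library 1, edgeR passed 6 members as higher, among 1507 higher and 379 lower of the 15055 genes then tested. Scaling by total counts alone moved the median of all genes from -0.17 to -0.78 on the log2 scale, and left 6 members higher, among 1258 higher and 3752 lower genes in place of 2093 and 968.

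**Figure D1:**
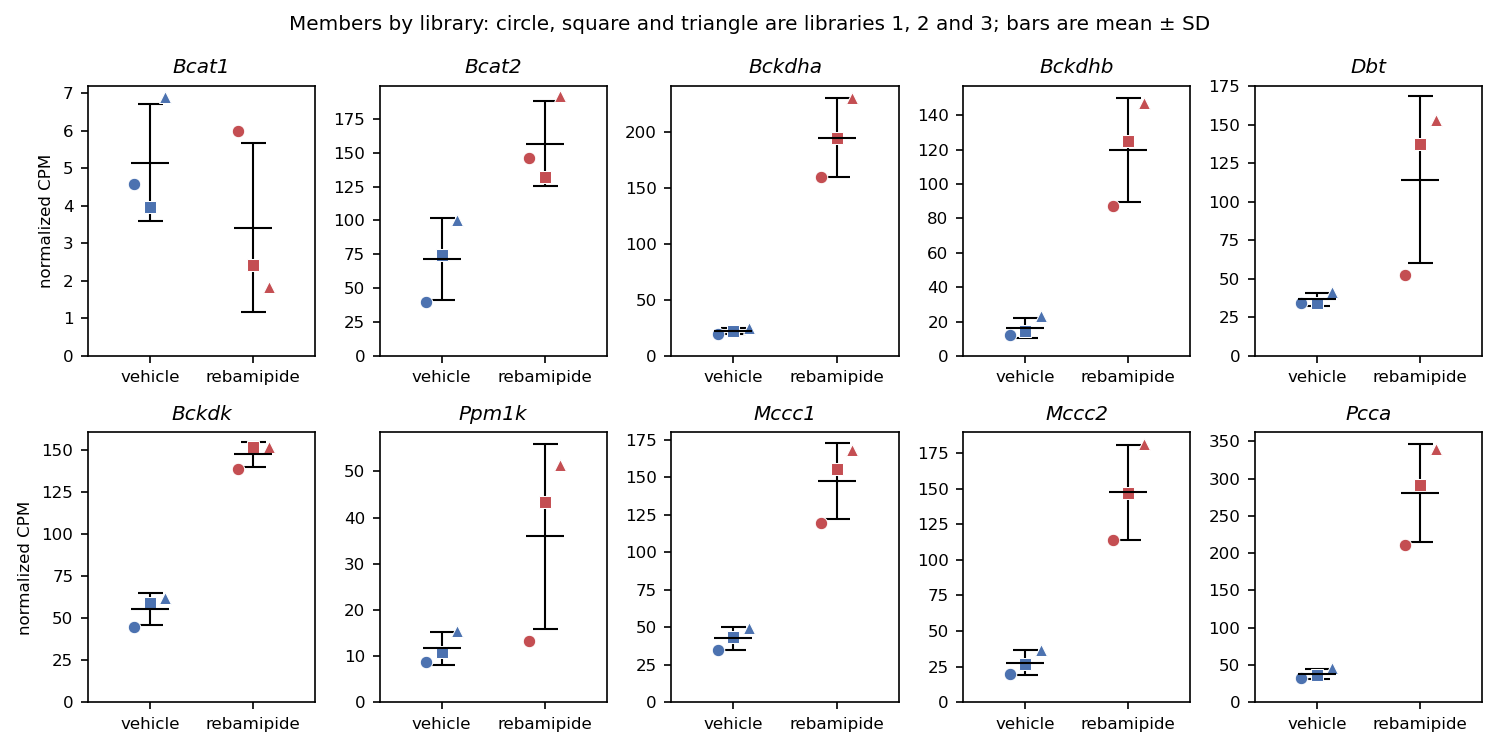
Normalized CPM (linear axis from 0) of each of the 10 members in the 3 vehicle and 3 rebamipide libraries, one panel per gene; circle, square and triangle are libraries 1, 2 and 3, and bars are mean ± SD (n = 3). The groups are apart in 8 panels and overlap for Bcat1 and Ppm1k.

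The members were set against genes of the mitochondrion, where most of the pathway lies. Of 1671 tested genes that the table annotates to the mitochondrion, 44.6% were higher and 2.51% lower, with a median log2 fold change of 0.86. Bckdha, at 3.13, lay above 94.3% of these genes and above 98.2% of all genes tested. Pcca and Bckdhb lay above 92.2% and 92.1% of the mitochondrial genes, and Mccc2 above 87%. Mccc1, Dbt, Ppm1k, Bckdk and Bcat2 lay nearer the middle, above 75.3%, 72.5%, 72.1%, 66.1% and 58% of them. Bcat1 lay above 15.6%.

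**Figure D2:**
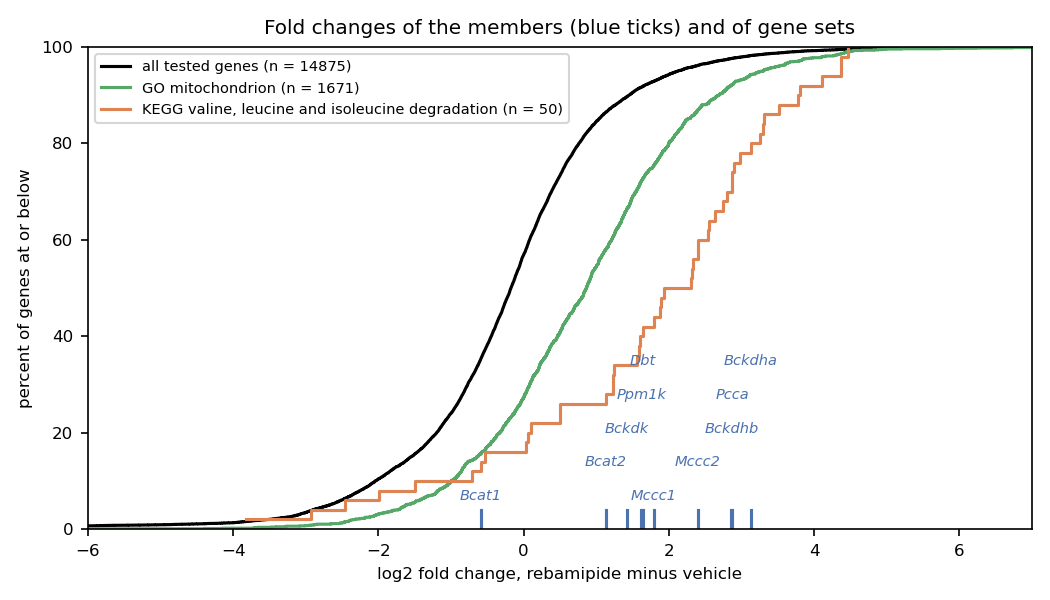
Percent of genes (y axis) at or below each log2 fold change, rebamipide minus vehicle (x axis), for all 14875 tested genes, 1671 mitochondrion genes and 50 genes of the KEGG pathway, with the 10 members as ticks. Every member except Bcat1 lies right of the mitochondrion median of 0.86.

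Upstream sequence is shown for 4 members that mark the range of responses: the 3 genes Bckdha, Pcca and Mccc2, from the complex and from both biotin carboxylases, and Bcat1, the only member with a negative fold change. Each line gives the 250 bases before an annotated RefSeq start, 5′ to 3′ on the gene's strand, in mouse build GRCm38.p6, which is not the build of the expression table. Capitals mark matches, on either strand, to the 5 motifs searched. The core promoter motifs were TATAAA and the GC box, GGGCGG. The ETS factor core was CCGGAAG. A nuclear receptor half-site was read as AGGTCA, and the longer estrogen-related receptor site, which contains that half-site, as TCAAGGTCA.
Bckdha, chr7:25658762-25659011, minus strand: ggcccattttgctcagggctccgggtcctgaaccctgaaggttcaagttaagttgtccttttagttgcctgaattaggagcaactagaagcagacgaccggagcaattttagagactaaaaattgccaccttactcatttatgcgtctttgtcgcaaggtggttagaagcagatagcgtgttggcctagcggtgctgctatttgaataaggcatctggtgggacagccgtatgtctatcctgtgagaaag
Pcca, chr14:122534078-122534327, plus strand: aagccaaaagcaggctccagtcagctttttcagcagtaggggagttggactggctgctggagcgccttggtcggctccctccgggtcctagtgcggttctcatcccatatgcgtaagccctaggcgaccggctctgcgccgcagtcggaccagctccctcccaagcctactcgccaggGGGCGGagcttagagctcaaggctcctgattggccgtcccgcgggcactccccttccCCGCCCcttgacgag
Mccc2, chr13:100015640-100015889, minus strand: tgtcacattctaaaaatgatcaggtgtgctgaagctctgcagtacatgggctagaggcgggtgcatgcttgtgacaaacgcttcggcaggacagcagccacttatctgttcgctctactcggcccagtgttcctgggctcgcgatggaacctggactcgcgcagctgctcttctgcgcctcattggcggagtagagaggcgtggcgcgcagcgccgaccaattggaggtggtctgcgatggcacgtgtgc
Bcat1, chr6:145076158-145076407, minus strand: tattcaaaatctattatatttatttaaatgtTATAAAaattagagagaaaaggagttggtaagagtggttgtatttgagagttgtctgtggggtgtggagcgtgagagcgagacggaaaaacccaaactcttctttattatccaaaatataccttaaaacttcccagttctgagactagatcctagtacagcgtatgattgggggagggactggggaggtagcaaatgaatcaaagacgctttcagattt

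The Bcat1 window shown held 1 TATAAA, 5 CpG dinucleotides and 37.6% GC. That TATAAA lay near the 5′ end of the window, far from the start. The other RefSeq window of Bcat1 held 0 TATAAA, 1 half-site, 9 CpG and 56.4% GC. The Pcca window shown held 2 GC boxes, 17 CpG and 64.8% GC, and its other window 0 GC boxes, 1 half-site, 7 CpG and 53.6% GC. Of each pair, the window shown is the one whose start matched more annotated transcripts. The windows of Bckdha (8 CpG, 47.6% GC) and Mccc2 (18 CpG, 58.8% GC) held none of the 5 motifs, and the median over all 32851 windows was 6 CpG and 52.4% GC. RefSeq windows were matched for 9 members, 13 windows in all, since Bcat1, Bcat2, Bckdhb and Pcca have a pair each. The GC box lay in 4 of the 13, those of Bckdhb, Mccc1, Pcca and Ppm1k, and in 32.7% of all windows. A half-site lay in 4 of the 13, in Bcat1, Bckdhb, Pcca and Ppm1k, and in 14% of all windows. TATAAA lay in 2, in Bcat1 and Bckdk, and in 12.4% of all windows. The ETS core (6.91% of all windows) and the estrogen-related receptor site (0.387%) lay in 0 member windows. A match is a run of letters and not an observed binding site.

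The 2 aminotransferases gave opposite signs, and neither passed the test. Bcat2, the mitochondrial enzyme (chr7:45219577-45239135 in GRCm39, plus strand), was at 39.8, 74.2 and 100.4 CPM in vehicle libraries 1, 2 and 3 and at 146.3, 131.9 and 191.6 CPM in rebamipide libraries 1, 2 and 3. The groups did not overlap in CPM, but vehicle library 1 was well below vehicle library 3. In FPKM they overlapped, with vehicle library 3 at 31.126 and rebamipide library 2 at 25.245. Means were 71.4 ± 30.4 and 156.6 ± 31.1 CPM (SD, n = 3), a log2 difference of 1.13 (SE 0.37, 95% interval 0.24 to 2.02) with an edgeR adjusted p of 0.0734. DESeq2 gave an adjusted p of 0.0354 for the same gene, and with total-count scaling the log2 difference was 0.52 and the edgeR adjusted p 0.254.

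Bcat1, the cytosolic enzyme (chr6:144939561-145021910, minus strand), was the least abundant member and had only 48 counts in rebamipide library 3. Its level was 4.59, 3.96 and 6.91 CPM in vehicle and 5.99, 2.42 and 1.83 CPM in rebamipide. Rebamipide library 1 lay inside the vehicle range, and the other rebamipide libraries lay below every vehicle library. The log2 difference was -0.59 (SE 0.53, 95% interval -1.89 to 0.70, edgeR adjusted p 0.433). Without rebamipide library 1 it was -1.27, at an edgeR adjusted p of 0.0656 and a DESeq2 adjusted p of 0.0104. Without rebamipide library 3 it was -0.28 (edgeR adjusted p 0.758), and without vehicle library 3 it was -0.29 (edgeR adjusted p 0.77).

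Both E1 subunits of the BCKDH complex rose, and Bckdha had the largest fold change of the 10 members. Bckdha encodes E1 alpha, which with E1 beta forms the thiamine-dependent decarboxylase and carries the serines that the kinase phosphorylates. Its level was 19.5, 22.5 and 24.9 CPM in vehicle and 160.2, 194.6 and 230.9 CPM in rebamipide, so the lowest rebamipide library lay far above the highest vehicle library. Means were 22.3 ± 2.71 and 195.2 ± 35.4 CPM (SD, n = 3), 8.75-fold higher, with a log2 difference of 3.13 (SE 0.23, 95% interval 2.58 to 3.68, edgeR adjusted p 0.00939). With total-count scaling the log2 difference was 2.5 (edgeR adjusted p 0.00847). Bckdha (chr7:25329371-25358406, minus strand) shares 5155 bases with B3gnt8 on the other strand, and whether counting used the strand is not given in the sources used here. B3gnt8 had 997, 503 and 176 counts in vehicle libraries 1, 2 and 3, against 974, 1107 and 1166 for Bckdha, and 51 to 137 counts in rebamipide libraries, against 4864 to 6051. The share of Bckdha's vehicle counts that could come from B3gnt8 was not tested.

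Bckdhb, which encodes E1 beta (chr9:83807198-84006293, plus strand), was at 11.9, 14.4 and 23.0 CPM in vehicle and 87.4, 124.7 and 147.2 CPM in rebamipide. The groups did not overlap. The rise was 7.28-fold, a log2 difference of 2.86 (SE 0.35, 95% interval 2.03 to 3.70, edgeR adjusted p 0.00953). With total-count scaling the log2 difference was 2.23 (edgeR adjusted p 0.00955). Per length, the ratio of Bckdha to Bckdhb FPKM (counts scaled to gene length and library size) was 1.56, 1.48 and 1.03 in vehicle and 1.74, 1.48 and 1.49 in rebamipide. These ratios overlapped, with a mean log2 difference of 0.23 (2-sided exact permutation p = 0.4, adjusted 0.5 over the 5 ratios tested).

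Dbt encodes E2, the lipoyl-bearing acyltransferase that forms the core of the complex (chr3:116306719-116343630, plus strand). It was at 34.1, 34.6 and 41.4 CPM in vehicle and 52.5, 137.2 and 153.0 CPM in rebamipide. Vehicle libraries were close together, while rebamipide library 1 stood nearer to vehicle than to the other rebamipide libraries. The rise was 3.11-fold, a log2 difference of 1.64 (SE 0.41, 95% interval 0.65 to 2.63, edgeR adjusted p 0.0393). That call was lost in 10 of 16 other ways of fitting the data, among them limma-voom (adjusted p 0.0524), total-count scaling (log2 difference 0.97, edgeR adjusted p 0.0674) and the fit without rebamipide library 3 (1.38, edgeR adjusted p 0.0919). Without rebamipide library 1 the log2 difference was 1.99.

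The E1 and E2 transcripts stood in different proportions in the groups. The Bckdha to Dbt ratio of FPKM was 1.01, 1.15 and 1.06 in vehicle and 5.38, 2.5 and 2.66 in rebamipide, and that of Bckdhb to Dbt was 0.647, 0.773 and 1.03 in vehicle and 3.09, 1.69 and 1.78 in rebamipide. Neither ratio overlapped between groups. Both ratios were picked after the values were seen and carry no test. Dld, the E3 subunit that the complex shares with the pyruvate and 2-oxoglutarate dehydrogenases, also rose, with a log2 difference of 2.54 (edgeR adjusted p 0.0231), and rebamipide library 1 at 258.5 CPM was again below libraries 2 and 3 at 857 and 854.3 CPM.

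Of the enzymes that regulate the complex, the kinase rose and the phosphatase did not pass. Bckdk, the kinase that inactivates E1 (chr7:127503254-127509393, plus strand), was at 44.5, 58.9 and 62.3 CPM in vehicle and at 138.6, 151.7 and 151.5 CPM in rebamipide. Its rebamipide libraries were the most tightly grouped of any member relative to their mean, 147.3 ± 7.5 CPM (SD, n = 3) against 55.2 ± 9.47 in vehicle. It rose 2.67-fold, a log2 difference of 1.42 (SE 0.20, 95% interval 0.94 to 1.89, edgeR adjusted p 0.0104). With total-count scaling the log2 difference was 0.8 (edgeR adjusted p 0.0252), and by limma on log2(FPKM + 1) 0.77 (adjusted p 0.0164).

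Ppm1k, the mitochondrial phosphatase that reactivates E1 (chr6:57483487-57512453, minus strand), was at 8.65, 10.9 and 15.5 CPM in vehicle and at 13.3, 43.3 and 51.3 CPM in rebamipide. Rebamipide library 1 fell within the vehicle range, and libraries 2 and 3 lay above it. The log2 difference was 1.62 (SE 0.53, 95% interval 0.33 to 2.91) and did not pass (edgeR adjusted p 0.0751), although DESeq2 gave an adjusted p of 0.0199. Without rebamipide library 1 it was 2.02 with an edgeR adjusted p of 0.0129, and without rebamipide library 3 it was 1.28 (edgeR adjusted p 0.171). By limma-voom it was 1.42 (adjusted p 0.118), with total-count scaling 0.94 (edgeR adjusted p 0.143), and by limma on log2(FPKM + 1) 0.64 (adjusted p 0.191).

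The balance of phosphatase to kinase did not separate the groups. The Ppm1k to Bckdk ratio of FPKM was 0.119, 0.114 and 0.153 in vehicle and 0.0589, 0.175 and 0.208 in rebamipide, with library 1 below and libraries 2 and 3 above the vehicle range (2-sided exact permutation p = 1.0). Bckdk relative to its substrate Bckdha was 1.17, 1.35 and 1.28 in vehicle and 0.445, 0.401 and 0.337 in rebamipide. Ppm1k relative to Bckdha was 0.14, 0.154 and 0.196 in vehicle and 0.0262, 0.0702 and 0.0701 in rebamipide. Both of the last ratios, picked after the values were seen and not tested, were lower in rebamipide without overlap.

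**Figure D3:**
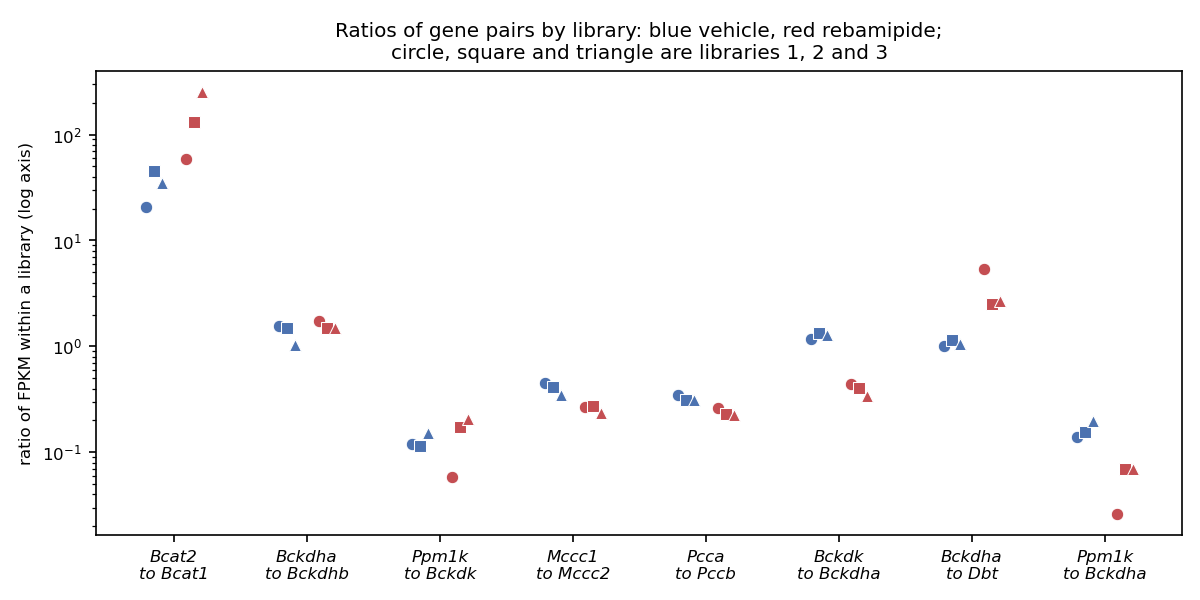
Ratio of FPKM of 2 genes within each library (log axis) for 8 gene pairs, vehicle in blue and rebamipide in red, with circle, square and triangle for libraries 1, 2 and 3. Bckdha to Bckdhb and Ppm1k to Bckdk overlap between groups, and the other 6 pairs do not.

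Both subunits of 3-methylcrotonyl-CoA carboxylase, the biotin enzyme of the leucine route, rose. Mccc1, the alpha subunit that carries biotin (chr3:36013461-36054827, minus strand), was at 34.9, 43.3 and 49.8 CPM in vehicle and 119.3, 155.8 and 167.9 CPM in rebamipide. Mccc2, the beta subunit with the carboxyltransferase site (chr13:100085038-100152147, minus strand), was at 19.9, 26.6 and 37.1 CPM in vehicle and 114.2, 146.6 and 181.2 CPM in rebamipide. Neither gene overlapped between groups. Mccc1 rose 3.46-fold (log2 difference 1.79, SE 0.23, 95% interval 1.24 to 2.34) and Mccc2 5.29-fold (2.40, SE 0.31, 1.65 to 3.15), each at an edgeR adjusted p of 0.00993. With total-count scaling the log2 differences were 1.16 for Mccc1 and 1.77 for Mccc2 (edgeR adjusted p 0.0119 and 0.0112). The Mccc1 to Mccc2 ratio of FPKM was 0.448, 0.417 and 0.344 in vehicle and 0.267, 0.272 and 0.237 in rebamipide. All rebamipide ratios were lower, a mean log2 difference of -0.63, at a 2-sided exact permutation p of 0.1, the smallest that 3 against 3 allows (adjusted 0.167 over 5 ratios).

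Pcca, the biotin-carrying alpha subunit of propionyl-CoA carboxylase, serves the isoleucine and valine routes (chr14:122771736-123128512, plus strand). It was at 32.7, 36.1 and 46.3 CPM in vehicle and 210.5, 291.7 and 339.8 CPM in rebamipide. The groups were far apart, with a 7.32-fold rise and a log2 difference of 2.87 (SE 0.28, 95% interval 2.20 to 3.54, edgeR adjusted p 0.00939). With total-count scaling the log2 difference of Pcca was 2.23 (edgeR adjusted p 0.00847). Its partner Pccb, the beta subunit, rose 9.94-fold (log2 difference 3.31, edgeR adjusted p 0.00939). The Pcca to Pccb ratio of FPKM was 0.346, 0.309 and 0.312 in vehicle and 0.262, 0.228 and 0.227 in rebamipide, lower in every rebamipide library (mean log2 difference -0.43, 2-sided exact permutation p = 0.1, adjusted 0.167). Pcca shares 74878 bases with Ggact on the other strand, which had 122 to 176 counts in vehicle libraries against 1631 to 2167 for Pcca, and 229 to 305 in rebamipide libraries against 6391 to 8903.

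The Bcat2 to Bcat1 ratio completed the 5 tested. It was 20.7, 44.8 and 34.7 in vehicle and 58.4, 131 and 250 in rebamipide. Every rebamipide library was higher, with a mean log2 difference of 1.96 (2-sided exact permutation p = 0.1, adjusted 0.167).

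Per length, the order of the members differed between the groups. In vehicle, Bcat2 stood first at 22.5 ± 9.09 FPKM (SD, n = 3), followed by Bckdk at 18.5 ± 2.71, Bckdha at 14.5 ± 1.38, Dbt at 13.6 ± 1.2, Mccc2 at 12.3 ± 3.49, Bckdhb at 11.2 ± 3.71 and Pcca at 9.1 ± 1.46. Each of these 7 overlapped with its neighbours among them, so their order among neighbours is not resolved. Mccc1 (4.82), Ppm1k (2.4) and Bcat1 (0.683) followed, each apart from its neighbours. In rebamipide, Bckdha stood first at 82.2 ± 8.37 FPKM, above every library of Bckdhb at 52.7 ± 8.37. Pcca (42.8 ± 5.94) and Mccc2 (41.9 ± 6.03) came next, and from Bckdhb to Mccc2 each overlapped with the next. Bcat2 (32.4 ± 6.29), Bckdk (32.1 ± 2.33) and Dbt (26.5 ± 10.6) overlapped one with the next, and Mccc1 (10.8), Ppm1k (4.62) and Bcat1 (0.313) were again the last 3.

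Within each group the members tended to be low and high in the same libraries. In vehicle, 9 of the 10 members were lowest in library 1 and 10 of 10 highest in library 3. In rebamipide, 8 of 10 were lowest in library 1 and 8 of 10 highest in library 3. The share of all genes with such an order was not counted. Mitochondrially encoded genes took 2.59%, 4.28% and 5.36% of counts in vehicle libraries 1, 2 and 3. In rebamipide libraries 1, 2 and 3 they took 13.28%, 19.4% and 21.96%. The adipocyte marker sum was likewise lowest in library 1 and highest in library 3 of each group: 1849.5, 3321.5 and 5428 CPM in vehicle and 11781.9, 18588.9 and 21651.5 CPM in rebamipide. The endothelial sum had the same lowest and highest libraries. Other marker sums did not: the brown adipocyte sum was 215.3, 210.6 and 368.7 CPM in vehicle and 4860.6, 12662.8 and 10380.7 CPM in rebamipide, and the fibroblast sum, 12002.1, 13734.7 and 17735.1 CPM in vehicle, was highest in library 1 of rebamipide at 15112.3 CPM and lowest in library 3 at 1849.6 CPM. Without rebamipide library 3, the library with the fewest keratinocyte transcripts, 6 members passed as higher in edgeR and 7 in DESeq2 (1012 and 2046 of all 15327 genes then tested), and the log2 differences of Bckdha, Pcca, Bckdhb, Mccc2, Mccc1 and Bckdk were 3.00, 2.72, 2.70, 2.24, 1.70 and 1.40.

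Most of the rest of the pathway was also higher. Of 18 further genes, from the keto acid and amino acid carrier to the vitamin B12 steps, 17 (94.4%) rose and 0 fell, against 14.1% and 6.51% of all genes and 44.6% and 2.51% of mitochondrial genes, with a median log2 fold change of 2.36. By edgeR, 0 were lower also at an unadjusted p below 0.05, and DESeq2 and limma-voom passed 0 as lower. Those with the smallest p were Pccb, Echs1, the short-chain enoyl-CoA hydratase, which rose 9.79-fold (log2 difference 3.29), and Slc25a44, the mitochondrial branched-chain amino acid carrier, which rose 5.36-fold (2.42), all at an edgeR adjusted p of 0.00939. Slc25a44 was at 34.0, 33.1 and 32.1 CPM in vehicle and 118.4, 208.1 and 204.9 CPM in rebamipide.

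On the leucine route, the isovaleryl-CoA dehydrogenase Ivd and the hydratase Auh had log2 differences of 2.31 and 2.40. On the valine route they were 1.89 for Acad8, 2.79 for Hibch, 2.74 for Hibadh and 2.64 for Aldh6a1. The enzymes that follow propionyl-CoA carboxylase, Mcee and Mmut, gave 2.31 and 1.88, and Mmaa and Mmab, which handle the cobalamin cofactor, 2.07 and 1.35. Acadsb, the short/branched-chain acyl-CoA dehydrogenase of the isoleucine route, was the one that did not pass: it was at 32.1, 73.7 and 110.5 CPM in vehicle and 69.3, 204 and 232.3 CPM in rebamipide, with overlapping groups (log2 difference 1.22, edgeR adjusted p 0.178).

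The table's own annotation to the KEGG pathway of valine, leucine and isoleucine degradation gave a wider list. It includes the members except Bckdk and Ppm1k. Of 56 annotated genes 50 were tested, of which 35 (70%) were higher and 0 lower, against 14.1% and 6.51% of all genes, with a median of 2.12. At an unadjusted p below 0.05, 1 was lower by edgeR, 2 by DESeq2 and 3 by limma-voom, and DESeq2 placed 2 and limma-voom 0 as lower after adjustment. Leaving aside the members and the 18 genes above, 27 tested genes of the pathway had 15 (55.6%) higher and a median of 1.24.

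**Figure D4:**
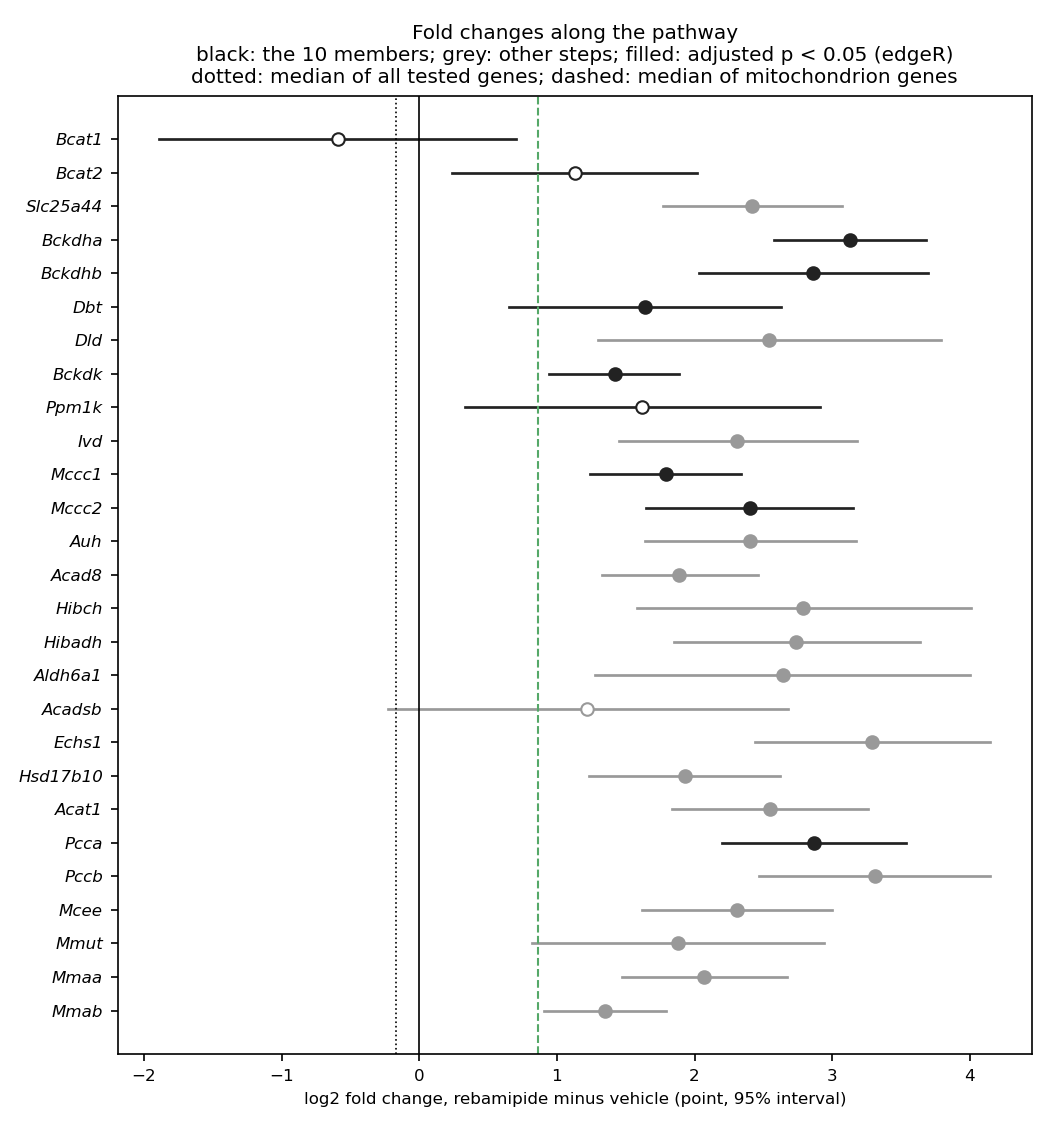
Log2 fold change, rebamipide minus vehicle (x axis; point with 95% interval), of the 10 members in black and 17 other steps in grey, in pathway order; filled points passed an edgeR adjusted p of 0.05, and vertical lines mark the medians of all genes (-0.17) and of mitochondrion genes (0.86). Bcat1 is the only gene with a point left of 0, and Bcat1, Bcat2, Ppm1k and Acadsb are open.

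Of 6 transporters that carry these amino acids across the plasma membrane, 0 were higher and 1, or 16.7%, was lower (all genes 14.1% and 6.51%), with a median of -1.09. At an unadjusted p below 0.05, edgeR gave 1 higher and 1 lower. After adjustment, DESeq2 placed 1 higher and 2 lower while limma-voom placed 0 and 1. Slc6a15, a sodium-coupled neutral amino acid transporter, fell from 1.16, 1.34 and 0.813 CPM to 0.132, 0.0779 and 0.0763 CPM (log2 difference -3.48, edgeR adjusted p 0.0117), levels that rest on few counts. Slc7a5, the light chain of the large neutral amino acid exchanger, was at 91.3, 31.8 and 25.3 CPM in vehicle and 19.0, 4.56 and 0.992 CPM in rebamipide, with no overlap but a wide spread (log2 difference -2.60, edgeR adjusted p 0.129). Slc43a2, a facilitative carrier, had a log2 difference of 1.15 (edgeR adjusted p 0.0563), and Slc43a1, a related carrier, one of -0.07 (edgeR adjusted p 0.939).

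Biotin is the cofactor of the carboxylases that Mccc1 and Pcca help to form. Among 6 genes of biotin supply and of the other biotin carboxylases, 5 (83.3%) rose and 0 fell, against 14.1% and 6.51% of all genes. At an unadjusted p below 0.05, 0 were lower by edgeR, 1 by DESeq2 and 1 by limma-voom, and after adjustment both of the latter passed 0 as lower. The acetyl-CoA carboxylases Acaca and Acacb, of fatty acid synthesis and its control, rose 7.08-fold and 9.24-fold (log2 differences 2.82 and 3.21, edgeR adjusted p 0.0101 and 0.0185), and the biotin transporter Slc5a6 rose 3.07-fold (1.62, edgeR adjusted p 0.0109). Hlcs, the ligase that attaches biotin to these enzymes, was at 27.9, 24.6 and 28.7 CPM in vehicle and 22.4, 13.6 and 8.89 CPM in rebamipide, below vehicle in every library without passing (log2 difference -0.86, edgeR adjusted p 0.131).

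Of 6 genes that make or use the glutamate of the first step, 1 rose, or 16.7% against 14.1% of all genes, and 0 fell (3 higher and 0 lower by edgeR at an unadjusted p below 0.05, and 3 higher and 0 lower after adjustment by DESeq2 and by limma-voom). Glul, glutamine synthetase, rose 5.39-fold (log2 difference 2.43, edgeR adjusted p 0.0238). Glud1, glutamate dehydrogenase, and Gpt, an alanine aminotransferase, had log2 differences of 1.05 and 1.37 at edgeR adjusted p of 0.0523 and 0.0579, with no overlap between groups. Got1, the cytosolic aspartate aminotransferase, was at 44.1, 62.8 and 123.1 CPM in vehicle and 141.1, 63.9 and 24.4 CPM in rebamipide (log2 difference -0.00, edgeR adjusted p 0.997), and its groups overlapped.

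Transcripts of the complexes built like BCKDH were also higher. Of 7 genes of the pyruvate, 2-oxoglutarate and 2-oxoadipate dehydrogenases, 6 (85.7%) rose and 0 fell, against 14.1% and 6.51% of all genes, with a median of 3.01. By edgeR, DESeq2 and limma-voom, 0 were lower at an unadjusted p below 0.05. Ogdh and Dlst, E1 and E2 of the 2-oxoglutarate dehydrogenase, rose 10.7-fold and 10.3-fold (log2 differences 3.43 and 3.37), and Pdhb, E1 beta of the pyruvate dehydrogenase, 8.07-fold (3.01), each at an edgeR adjusted p of 0.00939. Dhtkd1, the E1 of the 2-oxoadipate complex in lysine breakdown, had a log2 difference of 1.13 (edgeR adjusted p 0.059). Dbt relative to Dlat, the E2 of pyruvate dehydrogenase, was 0.745, 0.525 and 0.493 in vehicle and 0.152, 0.2 and 0.246 in rebamipide by FPKM, a ratio picked after the values were seen and not tested. Bckdha relative to Pdha1 overlapped between groups, at 0.222 to 0.331 in vehicle and 0.267 to 0.453 in rebamipide.

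Among the 7 kinases, phosphatases and phosphatase subunits of pyruvate dehydrogenase, 5 (71.4%) rose and 0 fell, against 14.1% and 6.51% of all genes, with a median of 1.47. By edgeR, 2 were lower at an unadjusted p below 0.05, and after adjustment DESeq2 passed 2 and limma-voom 1 as lower. Pdk4, the kinase known for its induction in fasting, rose 21.4-fold (log2 difference 4.42, edgeR adjusted p 0.0101), the phosphatase Pdp2 rose 8.66-fold (3.11, edgeR adjusted p 0.0125) and the kinase Pdk1 2.54-fold (1.35, edgeR adjusted p 0.0191). Pdp1, the other catalytic phosphatase, had a log2 difference of -0.88 (edgeR adjusted p 0.0686). Bckdk relative to Pdk4 was 0.59, 0.443 and 0.258 in vehicle and 0.0709, 0.0395 and 0.0396 in rebamipide by FPKM, again a ratio picked after the values were seen.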

How the data were processed

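Poly(A)-selected RNA from 3 vehicle and 3 rebamipide dorsal skin samples was sequenced by the authors, whose processing notes name fastp 0.22.0, HISAT2 2.1.0, HTSeq 0.9.1 and build GRCm39. The authors deposited raw, unscaled read counts for each gene. Beside them they deposited FPKM, which equal those counts scaled to the listed gene length and to library size. FPKM were used for levels between genes, for ratios within a library, and in limma on log2(FPKM + 1) and log2(FPKM + 0.1) as alternatives. All 12 value columns were matched to samples by name, and the strand setting of counting is not given in the sources used here.

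Counts were filtered with filterByExpr (14875 genes kept), scaled by TMM and tested with the quasi-likelihood test of edgeR 4.0.16 in R 4.3.3, rebamipide against vehicle, with Benjamini-Hochberg adjustment over all genes tested. DESeq2 1.42.0 (the tool of the study), limma 3.58.1 with voom, other scalings and filters, a replicate block and leaving out each library were alternatives. Ratios of FPKM were compared by 2-sided exact permutation tests (scipy 1.17.1). On simulated data for this comparison, edgeR recovered 90% of 200 genes changed 4-fold, with 7 false calls among 14778 genes. The simulation gave every gene the same relative spread beyond counting noise and the libraries no difference in tissue make-up. These rates therefore need not hold for the real libraries.

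The 10 members, the gene and marker lists and the tests were chosen with earlier results of these data known. Of each further list except the KEGG pathway, given by its counts and median, the 3 genes with the smallest p and the one with the largest were named; Dld, Ivd, Auh, Acad8, Hibch, Hibadh, Aldh6a1, Mcee, Mmut, Mmaa, Mmab, Dlat and Pdha1 were named after their values were seen. Of 75 marker genes 74 were found in the table. Intervals of log2 differences are 95% intervals of the edgeR fit. RefSeq upstream windows came from build GRCm38.p6, and no coordinates were converted between builds. Member counts per library ran from 48 (Bcat1) to 8903 (Pcca), and replicate libraries differed by far more than counting noise, so precision is limited by the number of libraries.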

Additional observations from a re-analysis of the deposited data

How the results depend on the processing

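No member changed the sign of its log2 fold change in any of the 16 planned or 12 added alternatives (DESeq2 and limma-voom without each library, chosen after seeing the data). In edgeR, fits that left out 1 library passed 0 to 8 members as higher and 0 as lower, 0 to 17 genes of the rest of the pathway as higher, and 0 to 35 KEGG pathway genes as higher and 0 to 3 as lower. Over all genes these fits passed 0 to 2810 as higher and 0 to 1971 as lower. DESeq2 and limma-voom without 1 library passed 3 to 9 members as higher and 0 to 1 as lower (Bcat1, by DESeq2 without rebamipide library 1), and 2 to 6 KEGG genes as lower where that count moved. Over all genes they passed 210 to 3657 as higher and 7 to 4189 as lower. Without vehicle library 2 or rebamipide library 2, limma-voom passed 3 and 4 members, 4 and 4 further pathway genes, and 14 and 15 KEGG genes. The 0 members came from edgeR without vehicle library 2 or rebamipide library 2, where the smallest adjusted p of a member was 0.0747 and 0.0573. At an unadjusted p below 0.05, 7 and 8 members were then higher, and 4116 and 4062 of all genes passed in either direction. The cause of the 0 members was not tested. Lower KEGG genes numbered 2 by DESeq2, 2 with total-count scaling, 6 with limma on log2(FPKM + 1) and 5 with log2(FPKM + 0.1), against 0 by edgeR. At an unadjusted p below 0.05 and an absolute log2 fold change above 1, 5 members were higher with total-count scaling and 5 with either FPKM scale, in place of 9, and leaving out 1 library gave 0 to 1 lower. All genes were not counted at that threshold under these scalings. Their median log2 fold change was -0.78 with total-count scaling and -0.46 with log2(FPKM + 1), against -0.17 by TMM. The Ppm1k to Bckdk log2 difference, 0.015, became -0.004 with 0.1 added to FPKM and ran from -0.33 to 0.58 when 1 library was left out. Across the libraries as a whole, total-count scaling gave 1258 higher and 3752 lower genes, against 2093 and 968 by TMM, DESeq2 2719 and 2534, and limma on log2(FPKM + 1) 1401 and 4809.

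Same-numbered libraries did not deviate together (correlations -0.016, -0.038 and 0.003), while differently numbered pairs ran from -0.323 to 0.379. Deviations from the mean of so few libraries are tied to each other, so these values cannot settle whether the numbers pair samples. With the replicate block 6 members were higher, Dbt (log2 fold change 1.51, edgeR adjusted p 0.0672) being lost, all 18 genes of the rest of the pathway were higher, Acadsb being gained (1.22, edgeR adjusted p 0.0327), and 1432 of all genes were higher and 855 lower. With 3 libraries per group no single ratio could reach an exact p under 0.1, and basal keratinocyte, brown and general adipocyte and endothelial marker levels cannot be told apart from treatment because they separate the groups.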
